A study of Mus musculus with 6 samples.

Results

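The cytosolic ribosomal protein genes are the protein-coding mouse genes whose symbols begin with Rpl or Rps, plus Fau, without the Rps6k kinases and without pseudogenes. In the GENCODE M21 annotation of GRCm38 this rule gave 87 genes of the 47643 genes in the count files, and all 87 were in the files. Of these, 78 encode core subunit proteins, 46 of the large subunit and 32 of the small subunit. The other 9 are paralogs or related genes that carry such a symbol (Rpl3l, Rpl7l1, Rpl10l, Rpl22l1, Rpl36al, Rpl39l, Rps27l, Rps27rt and Rps19bp1). Rps19bp1 encodes a nuclear binding partner of Rps19 and is no subunit protein.

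The values come from 6 libraries, 1 per tumor, of sorted CD45-EPCAM+ cells from mammary tumors of female FVB/N MMTV-PyMT mice, in which the mammary tumor virus promoter drives polyoma middle T antigen in the mammary epithelium. By the methods of the study, cells with the endothelial marker CD31 or the fibroblast marker PDGFRα were gated out as well. Every mouse received B20-4.1.1, an antibody against VEGFA, at 5 mg/kg intraperitoneally 2 times a week for 6 weeks, from 7 weeks of age. The study sorted treated tumors into high hypoxia and low hypoxia tumors, but the class of each tumor is not given in the sources used here, and vehicle-treated tumors were not analysed here, so values are given by tumor, numbered 1 to 6. Libraries were made by a 3′ method (QuantSeq FWD), which counts reads near the polyadenylated end, and levels are given as CPM, the count of a gene relative to all counts on genes in its library. In such bulk samples, fewer cells of a type and less RNA per cell cannot be told apart.

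Counts on genes ranged from 2509482 in tumor 2 to 5893246 in tumor 1, and 3 counts, the floor of detection for counting error, corresponded to 0.509 to 1.20 CPM. The percentages of reads that fell on no single gene were, for tumors 1 to 6, 16.1, 41.4, 29.0, 30.9, 23.6 and 21.2%. Tumor 1 stood apart on the high side for 10.6% of the 12088 genes that passed the filter on low counts, by a gap to the next tumor above the 95% critical value of Dixon for 6 values, against at most 1.5% for any other tumor in either direction. The sort was reflected in the markers, with Epcam at 611 to 972 CPM and Ptprc, which encodes CD45, at 0.797 to 3.40 CPM. The 7 luminal markers summed to 3957 to 4874 CPM, the 3 fibroblast markers to 12.9 to 18.9 CPM and the 3 endothelial markers to 1.59 to 3.88 CPM. The 7 immune markers summed to 15.5 to 49.7 CPM in the other tumors and 219 CPM in tumor 3, and the 3 erythroid markers to 5.08 to 63.3 CPM and 778 CPM, respectively. No marker was at 0 in all 6 tumors.

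Each ribosome joins a large subunit, which forms peptide bonds, to a small subunit, which reads the mRNA, and nearly all of the proteins are present as a single copy per ribosome, the acidic stalk proteins Rplp1 and Rplp2 being the known exception. Their mRNAs are among the most abundant of a dividing cell and typically begin with a C followed by an unbroken run of pyrimidines, the 5′ terminal oligopyrimidine (TOP) tract, through which mTOR signaling controls their translation. Many of these genes have processed pseudogene copies in the mouse genome, so a read from the mRNA can match several places.

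The start of the annotated mRNA was compared with this element. The lines below give 30 bases of the GRCm38.p6 strand of the gene, from 10 bases before the RefSeq start to 19 bases after it, with the unbroken run of C and T from the start in capitals. They are examples, chosen after the sequences were seen, shown to compare core genes that carry a run with core genes and paralogs that do not at the annotated start.
Rpl15 (chr14:18270967-18270996, minus strand): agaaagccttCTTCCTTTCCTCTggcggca
Rps6 (chr4:86857348-86857377, minus strand): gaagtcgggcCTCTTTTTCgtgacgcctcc
Rps15a (chr7:118116128-118116157, minus strand): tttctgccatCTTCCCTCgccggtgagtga
Rpl7a (chr2:26910797-26910826, plus strand): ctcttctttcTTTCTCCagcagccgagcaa
Rps23 (chr13:90923112-90923141, plus strand): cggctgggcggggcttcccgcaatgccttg
Rpl37 (chr15:5116603-5116632, plus strand): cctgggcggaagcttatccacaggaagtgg
Rpl22l1 (chr3:28805498-28805527, plus strand): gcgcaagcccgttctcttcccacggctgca
Rps27l (chr9:66946076-66946105, plus strand): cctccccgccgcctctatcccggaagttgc

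Promoter windows were matched for 67 of the 87 genes, 58 of them core genes. A start on C with a run of at least 5 C or T was found in 13 of the 58, or 22.4%, against 2.51% of all 32851 windows. Allowing the run to begin within 5 bases of the start gave 26 of 58, or 44.8%, against 18.3% of all windows, and 3 of the 9 paralogs and related genes that matched. Rps23, Rpl22l1 and Rps27l, printed above without capitals, are among those with such a run near the start, while Rpl37 is not. The annotated starts of some genes lie well away from the GENCODE start, so a missing run describes the annotated start only. Of the motifs searched on either strand in the 300 bases from 250 before to 50 after the start, CCGGAAG of the ETS family was in 37.9% of the core windows and 8.86% of all windows, GGGCGG of the SP family in 60.3% and 35.7%, AAGATGGC of YY1 in 8.62% and 2.75%, and TATAAA of the TATA box in 8.62% and 13.6%. These matches are descriptions of the sequence and not of binding.

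The core genes together made up 3.80 to 7.01% of the counts on genes, but the mean level of single genes ran from 0.692 CPM for Rpl29 to 2449 CPM for Rps20. Mean CPM over the 6 tumors had a median of 470 over the 78 core genes, 352 over the large subunit genes and 605 over the small subunit genes. In all, 19 core genes exceeded 1000 CPM and 13 were under 100 CPM. The 5 highest genes of the large subunit held 36.5% of the sum of its genes and those of the small subunit 40.6%.

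Among the highest small subunit genes, Rps20 was at 4728, 1902, 1841, 1753, 2211 and 2257 CPM in tumors 1 to 6. Rps26, near the exit of the mRNA channel, was at 2945, 1505, 2632, 2203, 2567 and 2452 CPM, and Rps14 at 1978, 1980, 2763, 2022, 1987 and 2215 CPM. Tumor 1 was more than 2-fold above every other tumor for Rps20, tumor 2 was the lowest for Rps26, and the tumors other than 3 were close together for Rps14. Rps12 followed with a mean of 2023 CPM. Of the large subunit, Rpl37 was at 3303, 1448, 2558, 2308, 2913 and 2134 CPM. Rpl23a, at the mouth of the tunnel through which the new peptide leaves, was at 2758, 1643, 2395, 2283, 2797 and 2127 CPM, and its last 300 bases lie wholly (100%) over exons of Tlcd1 on the other strand. Tumor 2 was the lowest for both. Rpl23, Rpl31 and Rpl26 followed, with means of 2256, 1530 and 1442 CPM. The ranges over tumors of neighbors in this order overlapped, and the order within the highest 5 of a subunit is not separated from the spread between tumors.

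The 3 lowest core genes had few counts. Rpl29 had 9, 1, 1, 1, 3 and 6 counts in tumors 1 to 6, at or under 3 counts in 4 of the 6, and did not pass the filter. Rps6, the substrate of the S6 kinases, had 4, 9, 11, 13, 62 and 31 counts, or 0.679 to 12.4 CPM. Rpl24, which forms a bridge between the subunits, had 16, 10, 23, 20, 37 and 25 counts, and 58.3% of its last 300 bases overlap exons of Gm28037 on the same strand, a gene listed at 0 in every tumor. Rpl15 was the next lowest of the large subunit, at a mean of 19.2 CPM. Rps2 was the next lowest of the small subunit, at a mean of 74.4 CPM. Divided by gene length (TPM, which a 3′ method does not need), 3 of the 5 highest and all 3 of the lowest core genes by CPM remained among the highest 5 and lowest 3, and the Spearman correlation between both scales was 0.89 across the 78 genes. Rps20 stood at 2449 CPM and 1531 TPM, and Rps29, named after its values were seen, at 1493 CPM and 5488 TPM.

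How much of the 3′ end is shared with other genes was computed from the reference. For each core gene, every window of 50 bases in the last 300 bases of its principal transcript was looked up in the transcripts of all genes at other places of the genome. Of the 78 core genes, 15 had no shared window, and 50 had at least 50% of the windows shared. The 28 genes under 50% had a median of 682 CPM and the 50 others 331 CPM. Of the 13 core genes under 100 CPM, 12 had at least 50% shared, Rps23 being the other with 12.4%, while 9 genes with at least 50% shared exceeded 1000 CPM. Rpl15 shared 95.6% of its windows, Rps6 83.3%, Rpl24 81.3% and Rpl29 69.7%. Rps12 shared 100% at 2023 CPM and Rpl23a 80.9%, with transcripts of 23 other genes, at 2334 CPM. Across the 78 genes the Spearman correlation of mean CPM with the shared percentage was -0.23, a description only, since the genes share the libraries. No count in the files was assigned to reads placed at several positions. With the transcript choice tried first, 36 core genes were under 50% with a median of 663 CPM, the 42 others had a median of 280 CPM, 11 of the 13 genes under 100 CPM had at least 50% shared, and the correlation was -0.23.

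**Figure D1:**
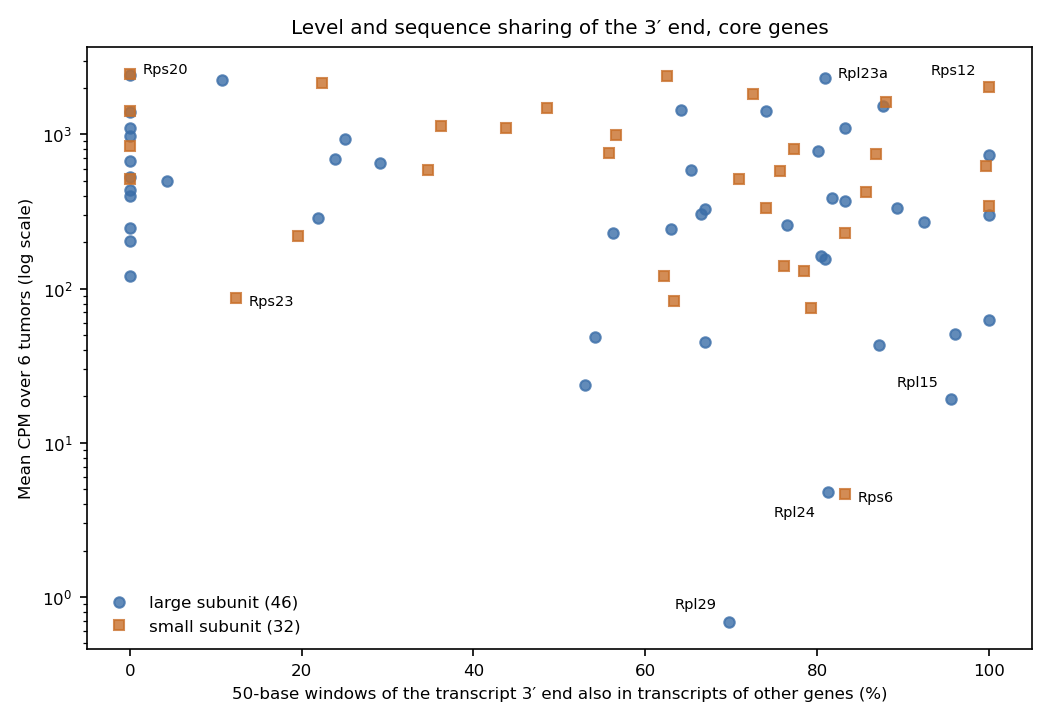
Mean CPM over the 6 tumors (log scale) against the percentage of 50-base windows in the last 300 bases of the transcript that are also in transcripts of other genes, for the 46 large subunit genes (circles) and 32 small subunit genes (squares). Of the 13 genes under 100 CPM, 12 lie at 50% or more, where 9 genes above 1000 CPM lie too.

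Pseudogenes named after these genes were counted at low levels. The genes with a symbol of this family that ends in a pseudogene mark summed to 803, 426, 356, 391, 490 and 532 CPM in tumors 1 to 6, or 0.631 to 1.14% of the sum over the 87 genes. Tumor 1 was the highest and tumor 3 the lowest. The sum holds only the 276 genes with such a symbol. Pseudogenes under other symbols were not summed, and no count was assigned to reads placed at several positions.

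Summed over a subunit, the genes of both subunits had the same highest and lowest tumor. The large subunit genes summed to 34548, 19722, 28099, 22218, 31694 and 28194 CPM in tumors 1 to 6. The small subunit genes summed to 35574, 18300, 27777, 21386, 29934 and 27442 CPM. Tumor 1 had the highest and tumor 2 the lowest sum, over a 1.75-fold range for the large and 1.94-fold for the small subunit. The large subunit share of these counts was 49.3, 51.9, 50.3, 51.0, 51.4 and 50.7%, with 95% Wilson intervals for counting error at most 0.634 percentage points wide. The interval of tumor 1, 49.1 to 49.4%, overlapped with no other, while those of tumor 2, 51.55 to 52.19%, and tumor 5, 51.25 to 51.60%, overlapped. With 1 library per tumor, these intervals hold no error between animals. By TPM the share of tumor 1 was 54.0% and that of tumor 2 55.7%, and over the genes with under 50% of windows shared 51.9% and 53.1%, so that tumor 1 was above 50% in both. By counts over all 87 genes it was 49.1%, and by TPM tumor 3 had the lowest share, 52.6%.

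**Figure D2:**
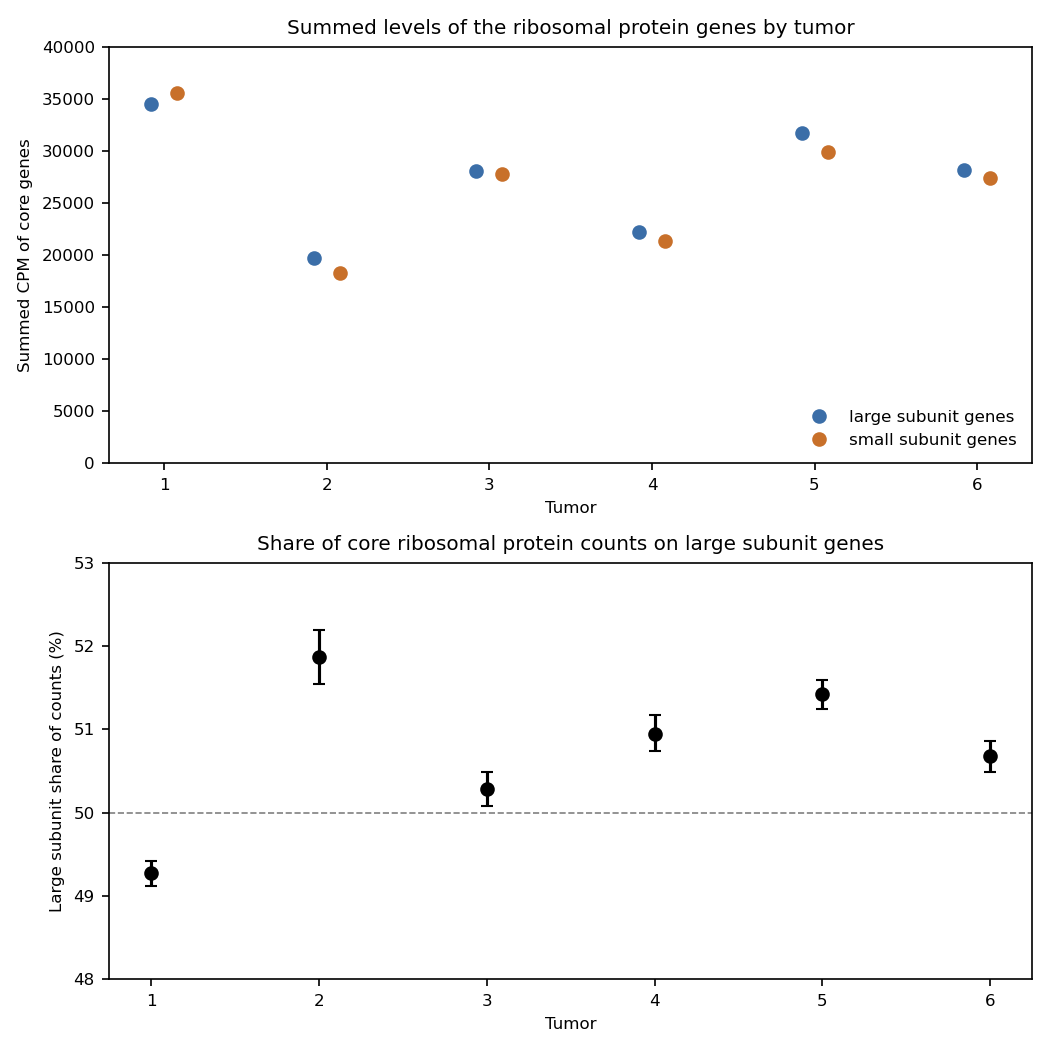
Top, summed CPM of the 46 large subunit and 32 small subunit genes in each tumor. Bottom, the large subunit share of the counts in percent, with 95% Wilson intervals for counting error and a dashed line at 50%. Tumor 2 has the lowest sums, 19722 and 18300 CPM, and tumor 1 the highest.

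To compare tumors gene by gene, counts were scaled with the TMM factors of edgeR, which trim the most changed genes, and each value was set against the median of the gene over the 6 tumors, on the log2(TMM-scaled CPM + 1) scale. Over the 77 core genes that passed the filter, the median difference was 0.08, -0.50, 0.02, -0.36, 0.27 and 0.26 for tumors 1 to 6, so tumors 2 and 4 were low and tumors 5 and 6 high. The median over all 12088 genes was between -0.02 and 0.02 in every tumor. In tumor 2 the large subunit median was -0.43 and the small subunit median -0.56. Only 6 of the 77 core genes were above their median in tumor 2 and 1 in tumor 4, against 68 in tumor 5 and 72 in tumor 6. The share of all genes tested above their own median was not counted, so these 4 counts stand without a background. The share of reads on no gene was larger in tumors 2 and 4 than in the other tumors, and its part in these values was not tested.

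The tumor in which a gene was lowest was tumor 2 for 40 of the 77 core genes, where 21.4% of all genes tested were lowest, and tumor 4 for 16, where 10.6% of all genes were. It was tumor 1 for 17 (31% of all genes), tumor 3 for 4 (9.62%) and tumors 5 and 6 for none (15.2% and 12.1%). The highest tumor was tumor 1 for 32 core genes (32.5% of all genes), tumor 5 for 24 (16.9%), tumor 3 for 11 (12.1%), tumor 6 for 10 (9.77%) and tumors 2 and 4 for none (19% and 9.77%). Without tumor 1, 53 core genes were lowest in tumor 2 (28.8% of all genes) and 31 highest in tumor 6 (18.6%). Without tumor 2, 48 were lowest in tumor 4 (17.2%) and 23 in tumor 1 (35.5%). These are counts over genes of the same 6 libraries and carry no test.

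**Figure D3:**
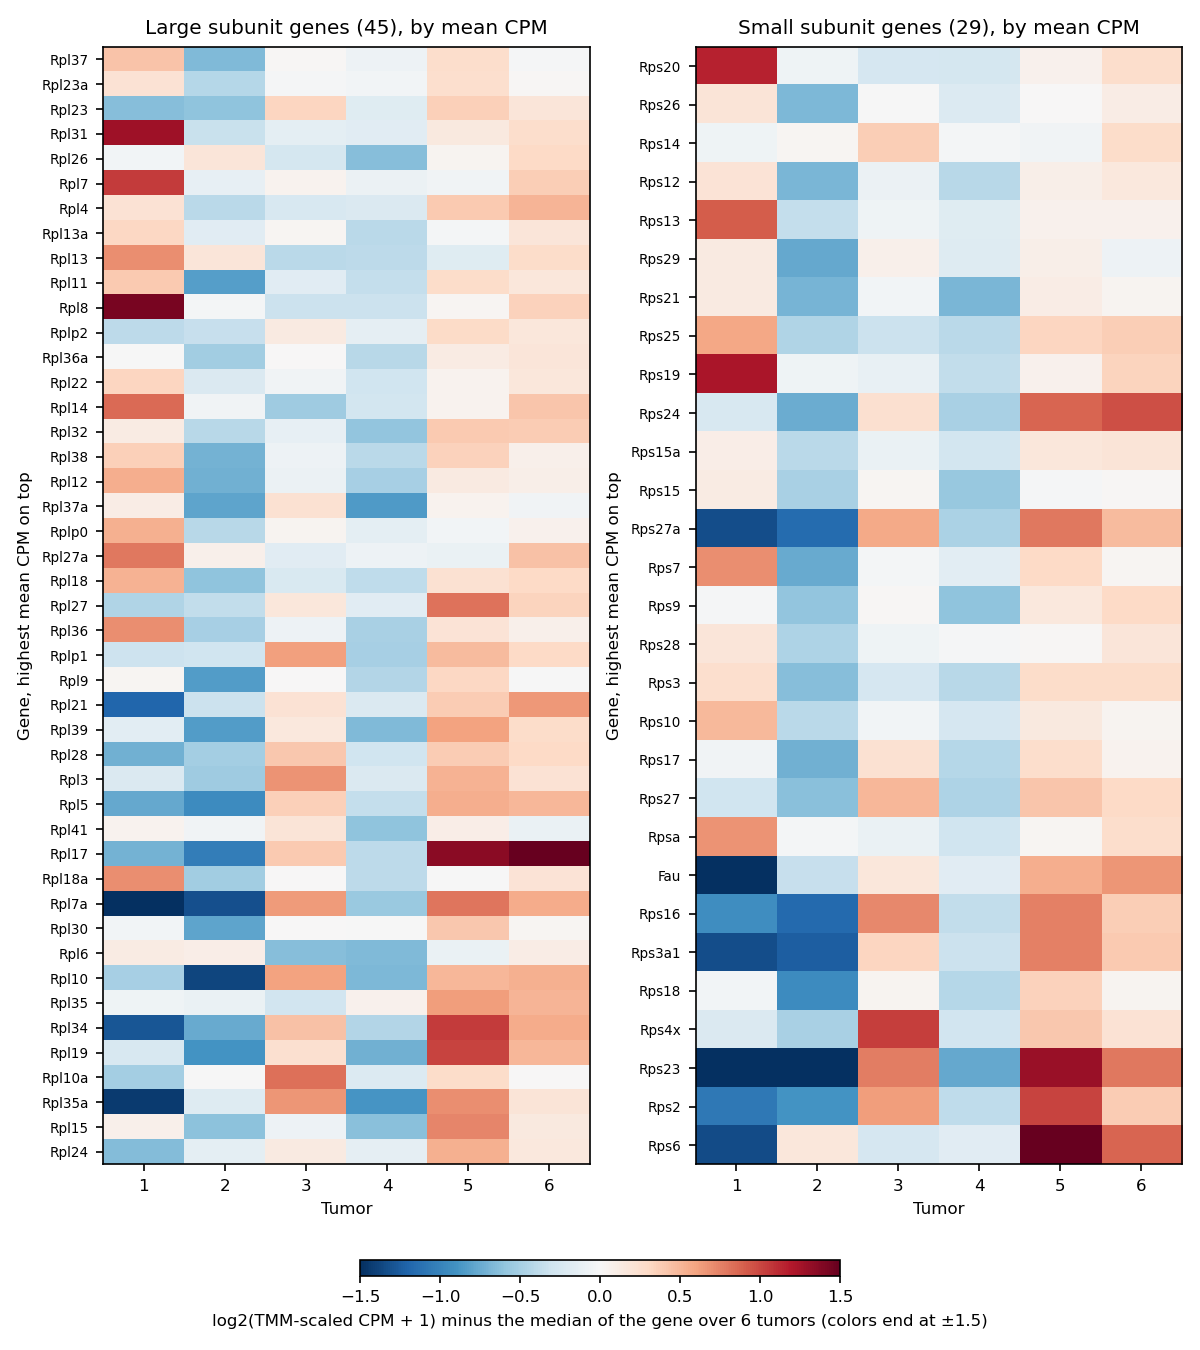
Difference of each gene from its own median over the 6 tumors, log2(TMM-scaled CPM + 1), for 45 large and 29 small subunit genes that passed the filter, in order of mean CPM. Blue columns for tumors 2 and 4 (medians -0.50 and -0.36) and red ones for tumors 5 and 6 run through both subunits, while tumor 1 holds both red and blue cells, down to the lowest difference, -2.12. The highest difference is in tumor 5, at 1.65.

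Tumor 1 did not shift the genes in 1 direction. Its differences ran from -2.12 to 1.43, with a median of 0.08 and an interquartile range from -0.45 to 0.48. Rpl8 was at 2055 CPM there, against 602 to 856 CPM in tumors 2 to 6. Rps19, which is mutated in Diamond-Blackfan anemia, was at 1960 CPM against 641 to 931 CPM. On the other side, Fau, which encodes Rps30 fused to a ubiquitin-like protein, was at 79.1, 169, 266, 203, 334 and 323 CPM for tumors 1 to 6. Rps27a, the small subunit protein fused to ubiquitin, was at 295, 313, 1138, 531, 1282 and 916 CPM, low in tumor 1 and in tumor 2. Rpl8 and Rps19 were named after their values were seen.

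The core genes highest in tumor 1 were mostly abundant ones. The 32 had a median of 763 CPM over tumors 2 to 6 and the 17 lowest in tumor 1 a median of 187 CPM. The median shared percentage of the 3′ end was 52.2% for the former and 80.5% for the latter. Across the 77 genes the difference in tumor 1 had a Spearman correlation of 0.56 with mean CPM over tumors 2 to 6, of -0.25 with the shared percentage and of 0.08 with the GC content of the last 300 bases. No such medians or correlations are given here over all genes tested, so the pattern is not shown to be particular to these genes. Tumor 1 also had the most counts on genes and the smallest share of reads on no gene, and the part of these in the values was not tested. On CPM, tumor 1 stood apart by the same gap on the high side for 10 of the 77 core genes, or near the 10.6% of all genes, and on the low side for none (1.22%). Counting every tumor and both sides, 12 of the 77 core genes had a tumor apart, where 16.3% of all genes did.

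Among genes with a fixed place in the named list, the stalk genes did not follow a single order. Rplp0, the stalk base, was at 634, 308, 462, 392, 424 and 406 CPM in tumors 1 to 6, highest in tumor 1. Rplp1 was at 251, 238, 494, 219, 431 and 339 CPM, highest in tumor 3. Rplp2 was at 620, 603, 921, 733, 989 and 809 CPM, highest in tumor 5. Rpl5 and Rpl11 bind Mdm2 together with 5S rRNA when ribosome assembly fails. Rpl5 was at 148, 123, 333, 195, 365 and 317 CPM and Rpl11 at 1340, 539, 928, 785, 1221 and 1014 CPM, so both were lowest in tumor 2 while tumor 1 was the highest for Rpl11 and the second lowest for Rpl5. The last 300 bases of Rpl5 lie wholly (100%) over exons of Fam69a on the other strand. Rpsa, also known as the laminin receptor, was highest in tumor 1, at 502 CPM against 255 to 334 CPM. The X-linked Rps4x was at 70.5 to 224 CPM and Rpl10, a late-joining large subunit protein with 100% of its windows shared, at 22.3 to 99.9 CPM.

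The spread between tumors differed widely among the genes. It is given as the edgeR dispersion of a gene divided by the trend of all genes at its abundance. The median ratio over the 83 genes that passed the filter was 0.743, against 0.635 over all genes tested, and 24 of the 77 core genes exceeded the trend, where 33.1% of all genes did. Without tumor 1 the medians were 1.17 over these genes and 0.574 over all genes, so the ratio depends on that library. The 5 most even core genes were Rps14 with a ratio of 0.130, Rps28 with 0.189, Rpl22 with 0.200, Rpl23a with 0.210 and Rps15a with 0.219. The highest tumor was 1.40 times the lowest for Rps14 and 1.55 times for Rpl22.

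The 5 most uneven core genes were Rps23, Rpl7a, Rpl17, Rps6 and Rpl34. Rps23, whose protein lies at the decoding site, was at 20.7, 19.5, 134, 43.8, 186 and 117 CPM, with a ratio of 5.98. Rpl7a was at 37.0, 61.4, 263, 110, 286 and 215 CPM, with a ratio of 4.30. Both were low in tumors 1, 2 and 4 and high in tumors 3, 5 and 6. Rpl17 was at 102, 76.1, 226, 126, 425 and 418 CPM, with a ratio of 3.91. Rpl34 was at 18, 24.7, 63.5, 32.5, 94.0 and 59.4 CPM, with a ratio of 2.89. The tumors fell in a like order, with tumors 1 and 2 as the lowest and tumor 5 as the highest for each of the 4. Rps6, with a ratio of 3.06, was highest in tumor 5 too, but on 4 to 62 counts. The last 300 bases of Rps23 shared 12.4% of the windows and those of Rpl7a 80.5%, with 66 pseudogenes.

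**Figure D4:**
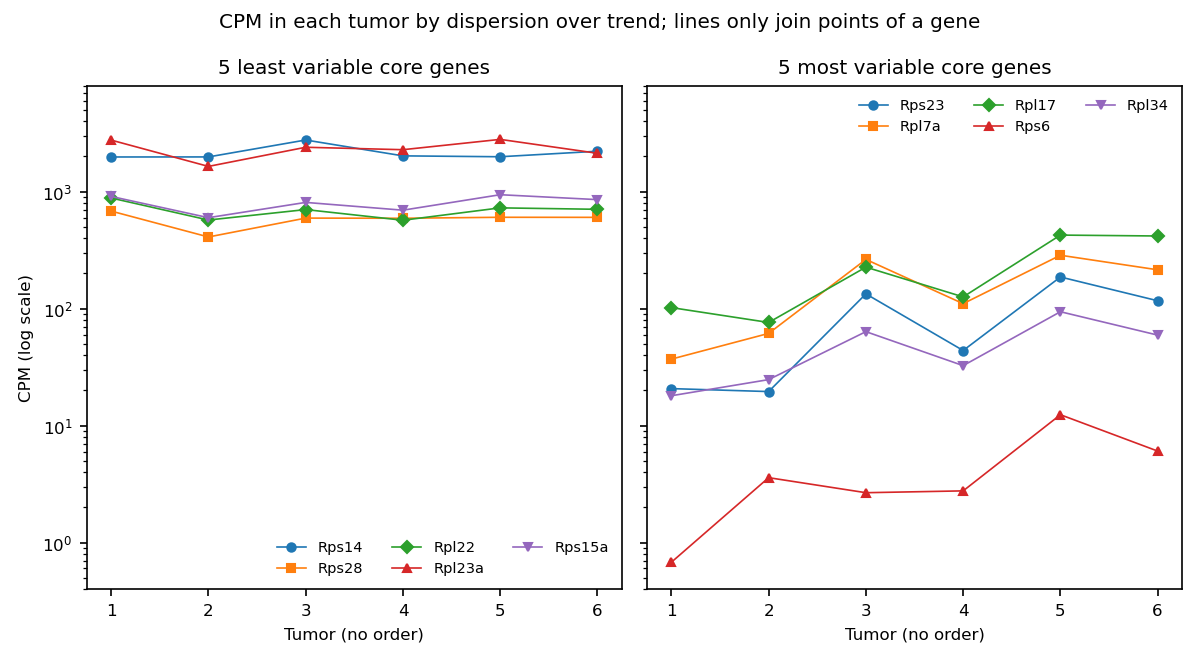
CPM (log scale) in each tumor for the 5 core genes with the smallest (left) and the largest (right) ratio of dispersion to trend. The lines join the points of 1 gene and mark no order of the tumors. Rps14 stays between 1978 and 2763 CPM, while Rps23 runs from 19.5 to 186 CPM.

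The paralogs were counted beside their partners to different extents. Rps27l, which responds to p53, was at 330, 131, 223, 155, 254 and 234 CPM, while Rps27 was at 279, 208, 499, 246, 457 and 375 CPM. Its share of the counts of the pair was 54.2% (95% Wilson interval 52.5 to 55.8%) in tumor 1 and 30.9 to 38.7% in the others. The 3′ end of Rps27 shared 100% of its windows with other genes and that of Rps27l 21.9%. The part of this difference in the share was not tested, and the interval does not hold it. Rpl22l1 was at 53.5, 42.2, 88.5, 83.6, 153 and 86.9 CPM and made up 5.71, 6.88, 11.2, 12.8, 17.4 and 11% of its pair with Rpl22, which was one of the most even core genes. Tumor 5 was the highest for Rpl22l1 and tumors 1 and 2 the lowest, and 53% of its last 300 bases overlap Gm33051 on the other strand. Rpl36al made up 5.07 to 7.89% of its pair with Rpl36a, and 69.0% of its last 300 bases overlap Gm49383 on the same strand. Rpl7l1 made up 3.48 to 5.16% of its pair with Rpl7. The shared percentage of the 3′ end was 100% for Rpl36a and 58.6% for Rpl36al. It was 23.9% for Rpl22 and 63.35% for Rpl22l1, and 74.1% for Rpl7 and 0% for Rpl7l1, so the sharing differed within these pairs too. Rpl39l had 1 count and Rpl3l 3 counts over all tumors, and Rpl10l had none, where 3 counts would have made 0.509 to 1.20 CPM.

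The coding sequences of the pairs were also compared. A 3′ method counts reads near the 3′ end, so coding identity alone does not show how far the counts of a pair can be told apart. The 3′ ends of Rpl10l and Rpl39l shared 0% of their windows with other genes, and that of Rps27rt 88.45%. Identity over the aligned coding sequence was 100% for Rps27 and Rps27rt, 87.9% for Rpl36a and Rpl36al, 85.3% for Rpl39 and Rpl39l, 84.8% for Rpl10 and Rpl10l, 76.1% for Rps27 and Rps27l, 73.3% for Rpl3 and Rpl3l, 66.9% for Rpl22 and Rpl22l1 and 53% for Rpl7 and Rpl7l1. The lines below give the last 60 coding bases, stop codon included, of Rps27 with its paralogs and of Rpl36a with Rpl36al, with the bases that differ from the first gene of the pair in capitals. They are from the GENCODE M21 transcripts on GRCm38, and for Rps27, Rps27l and Rpl36a the coordinates span an intron that is left out.
Rps27 (chr3:90212725-90212964, minus strand): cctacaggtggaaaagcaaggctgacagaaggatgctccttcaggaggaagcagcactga
Rps27rt (chr9:114982453-114982512, minus strand): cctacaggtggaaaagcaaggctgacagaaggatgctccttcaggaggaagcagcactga
Rps27l (chr9:66947667-66949357, plus strand): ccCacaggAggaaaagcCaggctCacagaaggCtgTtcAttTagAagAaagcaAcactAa
Rpl36a (chrX:134587535-134587957, plus strand): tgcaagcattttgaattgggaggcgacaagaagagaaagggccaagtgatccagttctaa
Rpl36al (chr12:69182816-69182875, minus strand): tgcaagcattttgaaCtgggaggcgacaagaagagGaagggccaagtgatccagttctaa
Rps27l differed from Rps27 at 12 of these 60 bases and Rpl36al from Rpl36a at 2, while Rps27rt did not differ. Rps27rt was counted at 18, 18, 26, 20, 44 and 42 counts, and its split from Rps27 is uncertain.

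Whether the genes followed hypoxia was examined with the score of the study, the mean TPM of Vegfa, Slc2a1 and Car9, which are targets of the hypoxia-inducible factors. The score was 48.5, 37.2, 51.4, 76.6, 94.4 and 47.3 TPM in tumors 1 to 6. With edgeR's quasi-likelihood test of the slope on log2 of the score and Benjamini-Hochberg adjustment over 12088 genes, 0 of the 83 genes that passed the filter rose and 0 fell at an adjusted p of 0.05, as for 0% of all genes. At an unadjusted p under 0.05 there was 1 of the 83 and 512 of all genes, or 4.24%. DESeq2 called 15 genes in all and none of the 83. On simulated data with 200 of the 12088 genes given a slope of 2, edgeR recovered 33.0% of them and DESeq2 65.5%, so slopes of that size would often have been missed.

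The slopes are log2 CPM per doubling of the score. Rpl22l1 had the smallest p, with a slope of 1.00 ± 0.38 (SE, 6 tumors) and an adjusted p of 0.954 by edgeR's quasi-likelihood test. Rpl30 had a slope of 0.60 ± 0.34 and Rps2 of 0.94 ± 0.54, with the same adjusted p of 0.954 by that test. The median slope was 0.21 over the 83 genes and -0.04 over all genes, and 61 of the 83 were above 0, where 46.8% of all genes were. The sign of this median rested on single tumors, as it was -0.05 without tumor 2, which had the lowest score, and -0.08 without tumor 5, which had the highest. The mouse identifiers in the labels carry 1 prefix for tumors 2 and 3 and another for the 4 other tumors. With this prefix as a term the median fell to 0.05, and 44 of the 83 slopes were above 0.

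**Figure D5:**
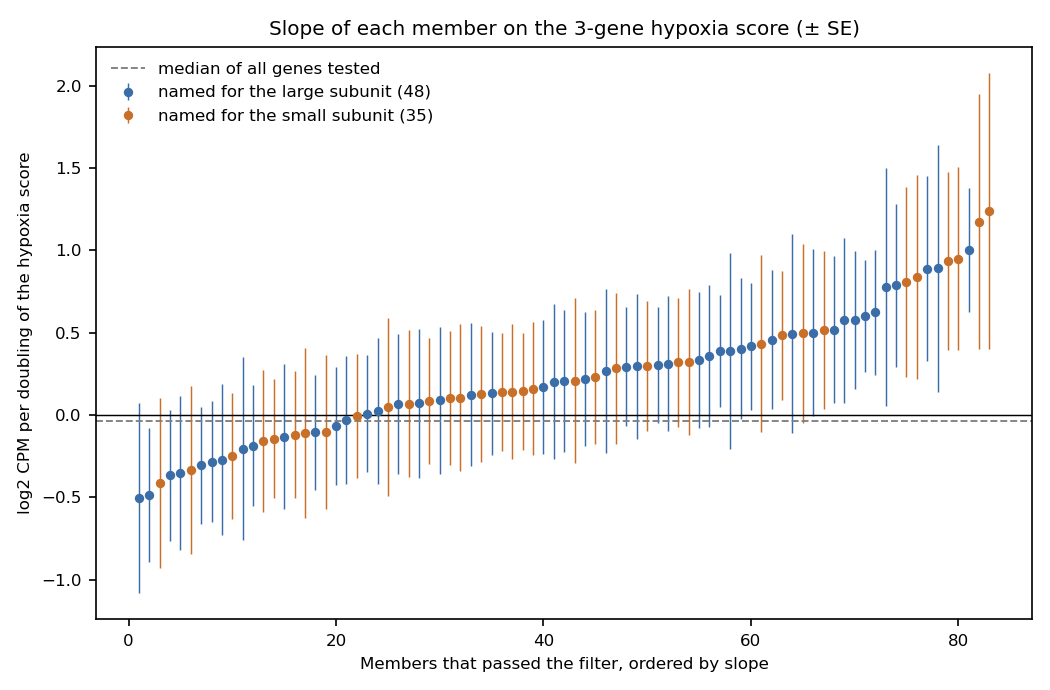
Slope on log2 of the hypoxia score with its standard error for the 83 genes that passed the filter, ordered by slope, in log2 CPM per doubling of the score. The dashed line marks the median of all genes tested, -0.04, and 0 of the 83 passed an adjusted p of 0.05.

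Other genes of translation were taken from fixed lists. The lists overlap, since several elongation and initiation factors, and Rack1, are also in the list of other genes with TOP mRNAs. Their values are therefore not independent. The 78 mitochondrial ribosomal protein genes, which serve a separate ribosome, summed to 4409, 2531, 3150, 2808, 3361 and 3139 CPM, highest in tumor 1 and lowest in tumor 2 like the cytosolic ones. Elongation factors summed to 5609 CPM in tumor 1, 3408 CPM in tumor 2 and 3896 to 4394 CPM elsewhere. The median difference of a gene from its own median was -0.29 over the mitochondrial ribosomal proteins, -0.33 over the elongation factors and -0.41 over other genes with TOP mRNAs in tumor 2, beside -0.50 over the core genes. In tumor 4 these lists were nearer to the median of all genes, at -0.13, -0.105 and -0.105, beside -0.36 over the core genes. Initiation factors, with a sum of 5562 CPM in tumor 1 and 5823 to 6804 CPM elsewhere, had a median of -0.11 in tumor 2, and ribosome assembly genes, with a sum of 2701 CPM in tumor 1 and 2853 to 3504 CPM elsewhere, of -0.01. In tumor 1 the median was 0.40 over the mitochondrial ribosomal proteins and -0.35 over the assembly genes. In the slope on the hypoxia score, 0 of 73 mitochondrial ribosomal proteins, 0 of 7 elongation factors, 0 of 28 initiation factors, 0 of 17 other genes with TOP mRNAs and 0 of 43 assembly genes passed an adjusted p of 0.05 by edgeR in either direction, with 1, 0, 1, 2 and 0 of them at an unadjusted p under 0.05. Rack1, which binds the small subunit but carries no such symbol, was at 2007, 1014, 1420, 1244, 1817 and 1324 CPM.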

How the data were processed

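Total RNA from sorted CD45-EPCAM+ cells of 6 tumors was sequenced as 3′ libraries. The authors used bbduk for trimming, STAR 2.5 for alignment to GRCm38 (mm10) and HTSeq for counting, and deposited raw counts per gene. The annotation release, the strand setting and the use of the molecular identifiers are not given in the sources used here. Intervals and floors therefore hold no error but that of counting, and genes that overlap on either strand are uncertain. The 5 lines that name no gene (16.1 to 41.4% of the reads) entered neither library sizes nor tests.

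CPM, TPM with union exon lengths of GENCODE M21, and TMM-scaled CPM were computed. The libraries are labelled as separate samples of 1 group, so p-values measure the spread between these samples. Genes were filtered with filterByExpr (minimum count 10, minimum total 15, group size 3), which kept 83 of the 87 genes (not Rpl29, Rpl3l, Rpl39l and Rpl10l). The slope was tested with edgeR 4.0.16, and with DESeq2 1.42.0 as an alternative, in R 4.3.3 (4 residual degrees of freedom), after a trial on simulated data. In that trial, 13.2% of 76 edgeR calls and 24.3% of 173 DESeq2 calls were false. Other values were computed with Python 3.11.15, numpy 2.4.6, pandas 2.3.3 and scipy 1.17.1. Promoter windows are from RefSeq (GRCm38.p6). Of the gene identifiers, 47224 of 47643 were in M21, with at most 0.0723% of the counts on the rest.

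The genes and lists were chosen with earlier results of these data known. Named genes are the 5 highest and 3 lowest core genes per subunit by mean CPM, a fixed list of stalk, ubiquitin-fusion and other well-known genes, the paralogs, the 5 largest and 5 smallest ratios of dispersion to trend, and the 3 smallest p-values of the slope. The rule for the transcript that defines the 3′ end was changed after values under the rule tried first had been seen, because it chose transcripts with long 3′ UTRs for some genes and counted genes at the same place as other genes, and both are reported. For Rps20 the only full coding transcript is 3706 bases long, so its 3′ end may not be the one used. The genes whose start is printed were chosen among the named genes after their values and sequences had been seen. The 6 protein-coding symbols that end in a pseudogene mark were left out of the 87 genes and counted with the pseudogenes. A few genes that the rule for named genes would name are not reported here by name, and the plot of differences by gene leaves them out, while counts and sums hold them.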

Additional observations from a re-analysis of the deposited data

Results flagged for a closer look

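Of 48 measures over the 6 tumors (sums, shares and the levels of 40 named genes), 7 had a tumor whose gap to the next exceeded Dixon's 95% critical value for 6 values, as a fraction of the range. Chance flags about 1 in 20, or 2.4 of 48, while 16.3% of all genes tested had a tumor apart by this gap and 7 of 48 is 14.6%. The measures share libraries and are not independent, and some genes were named by their level or spread in these same libraries. Tumor 1 was the tumor apart in 5 of them. For Rps20 the gap was 0.830, with 4728 CPM there against 1753 to 2257 CPM. Rpl31 was at 3121 CPM and 957 to 1419 CPM, a gap of 0.787. It was named by a mean that holds tumor 1. By the median over the 6 tumors it was at 1278 CPM, under Rpl4 at 1389 CPM, and not among the 5 highest of its subunit. Its flag is therefore not separate from the choice of the gene. Rpl7l1 was at 93.0 CPM and 49.6 to 61.7 CPM, a gap of 0.721. Rpsa was at 502 CPM and 255 to 334 CPM, a gap of 0.679. The share of Rps27l in its pair with Rps27 was 54.2% and 30.9 to 38.7%, a gap of 0.664.

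Rps14 was at 2763 CPM in tumor 3, which had the highest sums of immune and erythroid markers (219 and 778 CPM), and 1978 to 2215 CPM elsewhere, with a gap of 0.697. The part of these cell types in the value was not tested. Rps28 was at 410 CPM in tumor 2, the library with the fewest counts, and 592 to 682 CPM elsewhere, with a gap of 0.670.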

How the results depend on the processing

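Of 170 alternative values, 148 moved by less than 1 SD over the tumors or, for counts, stayed within 1.5 times. Some of the 148 could not move, such as the median shares of Rpl10l, with no count, and of Rpl39l, with 1 count. The total is therefore no measure of robustness. For the median slope and the dispersion ratio the SD was that of the values with each tumor left out. The median over tumors of the summed level, 28147 CPM for the large and 27609 CPM for the small subunit, was 35045 and 34369 when the 10 most abundant genes were left out of the total, 46365 and 40626 in TPM, 14302 and 12261 over the genes with under 50% of the windows shared, and 16874 and 14294 with the 3′ ends of the rule tried first. The large subunit share, 50.8%, was 54.0% in TPM, 53.8% over the genes with under 50% of the windows shared and 54.1% with the 3′ ends of the rule tried first. The median slope lay between -0.078 (without tumor 5) and 0.42 (without tumor 4), and was -0.051 without tumor 2, 0.052 with the prefix as a term and 0.318 without tumor 6, against 0.207. The median ratio of dispersion to trend lay between 0.617 and 1.17 with each tumor left out, the latter without tumor 1. The number of core genes highest in tumor 2 was 1 with DESeq2's size factors and 1 without the 10 most abundant genes in the total, against 0. It was 2 for tumor 6 in CPM, against 10, and the number lowest in tumor 3 was 7 with DESeq2's size factors, against 4. Chosen after seeing the data, leaving out tumor 1 moved the number highest in tumor 6 to 31, and it is 10 without tumor 2. It moved the number lowest in tumor 5 to 1, and it is 0 without tumor 2. Leaving out tumor 2 moved the number lowest in tumor 4 to 48, and it is 18 without tumor 1. The causes were not tested. Every setting kept the number of ribosomal protein genes past the adjusted p of 0.05 at 0. Over all genes tested the number was 15 with DESeq2, 10 with no filter on low counts and 2 without tumor 1. No paired analysis was possible because all tumors belong to 1 group. The depth leaves Rpl29, Rpl3l, Rpl10l and Rpl39l near or under the floor of detection.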
